A study of Caenorhabditis elegans with 2 samples.

Results

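The 50 protein-coding genes of Caenorhabditis elegans whose symbols begin with rpl- or rla- are named for proteins of the large subunit of the cytosolic ribosome. They were taken by symbol from the 19985 protein-coding genes of the Ensembl annotation. The rule uses no measured value, but the gene family was picked with earlier results of these data known. The large subunit holds the peptidyl transferase centre that joins amino acids, the tunnel through which the growing chain leaves, and the stalk that recruits translation factors. Most rpl genes encode its structural proteins, and the rla genes encode proteins of the stalk, but a symbol alone does not show that a product stays in the mature subunit. In growing larvae these genes are among the most strongly transcribed, and their products are needed in near-equal amounts. Many worm transcripts receive a spliced leader at their start, so an annotated 5′ end can lie downstream of the true start of transcription. Roles named below come from ribosome structures of yeast and mammals.

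Where tagged NHR-42, a nuclear hormone receptor, is found in chromatin was measured by chromatin immunoprecipitation and sequencing (ChIP-seq) in 1 group of 2 biological replicates. All animals were whole L4 larvae at 50 h, grown from bleached embryos arrested by starvation as L1. They carried the transgene wgIs351, in which nhr-42 is joined to TY1, EGFP and 3xFLAG tags and which also holds a copy of unc-119(+), in the mutant background unc-119(tm4063) (strain OP351). The precipitating antibody recognises GFP per the sample descriptions, although a separate label lists it under the name of the receptor. The labels do not name the promoter that drives the fusion, and 1 strain was used, so the level and tissues of the tagged protein may differ from those of the native one. Untagged animals were not analysed here, and no conditions were compared, so what follows is a description with no test between groups.

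The measurement is a set of peak lists. Each peak has a signal value from the authors' peak caller, with no stated unit, and a score from 0 to 1000 that is a scaled irreproducible discovery rate (IDR), a measure of how well paired lists agree on a peak. The conservative list of 1627 peaks, made from both replicates, begins at a score of 830, which is an IDR of 0.01. A longer list of 105959 ranked peaks also holds those below the threshold. The value given for a replicate is that of the strongest peak in its own ranked list that overlaps the series peak by at least 1 bp. A gene is called bound here when the summit of a conservative peak lies in its promoter window, which reaches 1000 bp upstream and 200 bp downstream of each annotated 5′ end. Read depth is unknown, because the lists hold no read counts.

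Of the 50 large subunit genes, 17 were bound (34.0%), against 4.42% of all protein-coding genes (884 of 19985). Each of the 17 had a single summit in its window, and no summit served more than 1 member. When only genes with any ranked summit in the window were counted, the share was 17 of 49 (34.7%), against 5.97% of 14797 genes. The bound members were rpl-3, rpl-7, rpl-7A, rpl-11.2, rpl-12, rpl-14, rpl-15, rpl-20, rpl-24.1, rpl-24.2, rpl-28, rpl-29, rpl-35, rpl-36, rpl-39, rpl-41.2 and rpl-43. None of the 3 rla genes was among them. The median signal over the bound members was 197, with a range of 87.7 to 937, against a median of 110.4 over the 884 bound genes. Among the 1627 peaks 7 of the 17 ranked in the strongest 100, and 15 lay above the list's median signal of 96.7.

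**Figure D1:**
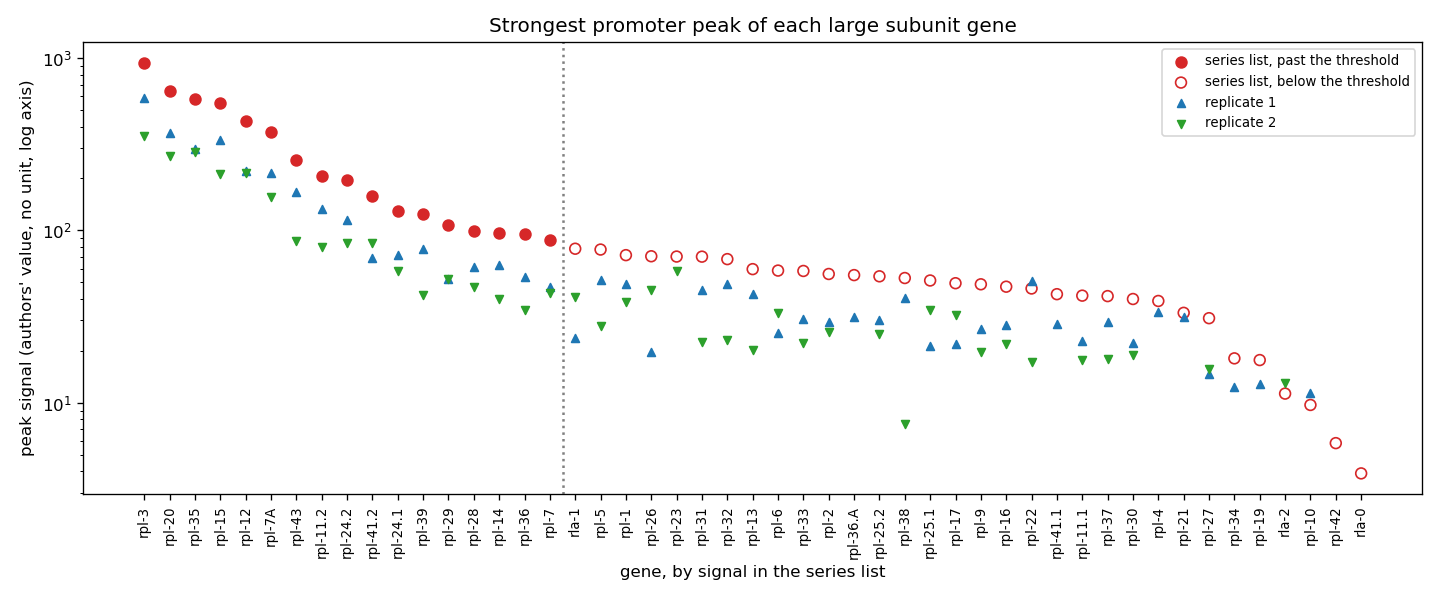
Signal of the strongest promoter peak of each of the 49 large subunit genes with a ranked summit (log axis), ordered by the series value; red circles are the series list (filled past the threshold, open below it), triangles the replicates where their own lists hold an overlapping peak. The 17 genes past the threshold run from 937 at rpl-3 down to 87.7 at rpl-7, and the highest gene below it, rla-1, stands at 78.2.

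A group of 6 genes stood at the top, all with signals of 373 or more in the series list. The strongest was rpl-3, whose protein reaches toward the peptidyl transferase centre. Its series signal of 937 ranked 3 of 1627, and the replicates gave 583 (replicate 1) and 354 (replicate 2). The peak of rpl-20 reached 642, with 368 in replicate 1 and 272 in replicate 2. The promoter of rpl-35, whose product sits at the rim of the tunnel exit, gave 581, with 295 and 283 in replicates 1 and 2. These 3 peaks passed the threshold in each replicate's own list as well, and replicate 1 was the higher in all of them.

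Next came rpl-15, which encodes a protein embedded in ribosomal RNA, with a signal of 546 (333 in replicate 1 and 211 in replicate 2). For rpl-12, whose product forms the base of the stalk with RNA, it stood at 429, with almost equal values of 219.8 and 215 in replicates 1 and 2. At rpl-7A the values were 373, 214 and 156 in the same order. Both of the last genes had their summits close to the annotated 5′ end, 25 bp upstream at rpl-12 and 62 bp upstream at rpl-7A. They were also the only bound members with repeated sequence near the summit: 19.5% of the 24-base words around the rpl-7A summit and 0.781% of those around the rpl-12 summit occurred more than once in the genome.

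The sequences at these 6 summits are shown because they carry the strongest signals. Each is the summit base with 50 bases on either side, read on the gene's strand from the RefSeq copy of WBcel235, which has the coordinates of build ce11. Capitals mark any match, on either strand, to the letters GAGACCC or to ACACTCG or to TACCGTA, which are described further down.
rpl-3, chrIII:3867525-3867625, plus strand: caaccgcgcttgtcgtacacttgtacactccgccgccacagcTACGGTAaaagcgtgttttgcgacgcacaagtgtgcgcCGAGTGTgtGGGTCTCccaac
rpl-20, chrIV:4750016-4750116, minus strand: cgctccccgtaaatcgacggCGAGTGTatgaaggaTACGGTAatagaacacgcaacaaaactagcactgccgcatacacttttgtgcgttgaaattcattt
rpl-35, chrIII:7854630-7854730, plus strand: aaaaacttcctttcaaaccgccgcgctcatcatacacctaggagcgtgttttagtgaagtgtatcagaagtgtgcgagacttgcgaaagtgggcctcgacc
rpl-15, chrIV:654879-654979, minus strand: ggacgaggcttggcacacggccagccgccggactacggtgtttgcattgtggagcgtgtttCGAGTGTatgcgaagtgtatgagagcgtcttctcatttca
rpl-12, chrIV:13240626-13240726, minus strand: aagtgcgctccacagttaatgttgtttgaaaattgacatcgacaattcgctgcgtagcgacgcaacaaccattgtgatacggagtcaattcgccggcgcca
rpl-7A, chrIV:4390602-4390702, minus strand: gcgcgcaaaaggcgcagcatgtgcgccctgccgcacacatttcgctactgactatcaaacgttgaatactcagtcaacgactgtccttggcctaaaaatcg

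The middle of the range held 6 genes with signals from 124 to 257. The peak of rpl-43 reached 257 (167 and 87.2 in replicates 1 and 2), but the summit lay 718 bp upstream of rpl-43 and 203 bp from the divergent gene Y48B6A.1. It was also the only member beyond position 13411280 of II, and leaving that stretch out gave 16 of 49. The position is the best split found by a scan for a step in the signal of ranked peaks below the threshold. Such a scan always returns a position, and the step itself was not tested. The peak of rpl-11.2, whose protein binds 5S ribosomal RNA, had a signal of 207 (133 and 79.6 in replicates 1 and 2). At rpl-24.2 the signal was 197 (114 and 84.8), and at the related gene rpl-24.1 it was 130.0 (72.1 and 57.8). The product of rpl-24.1 forms a bridge to the small subunit. For rpl-41.2, which encodes the smallest ribosomal protein, the signal was 159, and here replicate 2 was the higher, with 84.3 against 69.2. The rpl-39 protein lines the exit tunnel, and its promoter gave 124 (78.2 in replicate 1 and 42.1 in replicate 2).

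The remaining 5 bound genes had the lowest signals of the 17, from 87.7 to 107. They were rpl-29 (107, with 51.98 in replicate 1 and 52.42 in replicate 2), rpl-28 (99.1, with 61.0 and 47.1), rpl-14 (97.0, with 62.7 and 39.9), rpl-36 (95.1, with 53.4 and 34.6) and rpl-7 (87.7, with 47.1 and 43.6). All but rpl-36 had the maximum score of 1000, and rpl-36, with 916, was the member nearest to the threshold from above. Among members below the threshold rpl-5 was nearest, with a score of 650.

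The replicates' own lists called the 11 strongest members in both, and the 6 weaker ones in replicate 1 alone or in neither. The conservative list was made from the same replicates, so this is no separate support. A summit past the threshold was present in both replicates' own lists for 11 of the 17, from rpl-3 down to rpl-24.1, against 1.65% of all protein-coding genes that met the same rule. For rpl-39, rpl-14 and rpl-36 a summit passed in replicate 1 only, and for rpl-29, rpl-28 and rpl-7 in neither. Counted from its own list, replicate 1 called 15 members (background 3.10%) and replicate 2 called 11 (background 2.11%). The members called in replicate 1 included rpl-5, and those called in replicate 2 were all called in replicate 1. The other series list of 1789 peaks called 18, the same 17 and rpl-5 (background 4.86%).

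Replicate 1 gave the higher signal at 15 of the 17 bound members, with a median ratio of 1.36 and a range of 0.821 to 1.91. The exceptions were rpl-41.2 and rpl-29. Of the 1627 conservative peaks 1606 had an overlapping peak in both replicates' lists, and replicate 1 was higher in 47.9% of them. Among promoter peaks at least as strong as the weakest bound member, 512 of 514 could be compared, replicate 1 was higher in 62.7%, and the median ratio was 1.15. The difference was not tested, since the values of 1 peak in 2 libraries carry no replicate error of their own. Over the 17 members the replicate signals had a Spearman rho of 0.892 (Pearson r 0.955 on the log2 scale), against 0.488 (0.747) over the 1606 peaks and 0.538 (0.712) over the 512 promoter peaks. This is a description across peaks that share their libraries and were kept for their agreement. The sets also differ in how their signals are spread, with 7 of the 17 members in the strongest 100 of 1627 peaks. A correlation depends on that spread, so these values do not show that the replicates agree better at these genes.

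**Figure D2:**
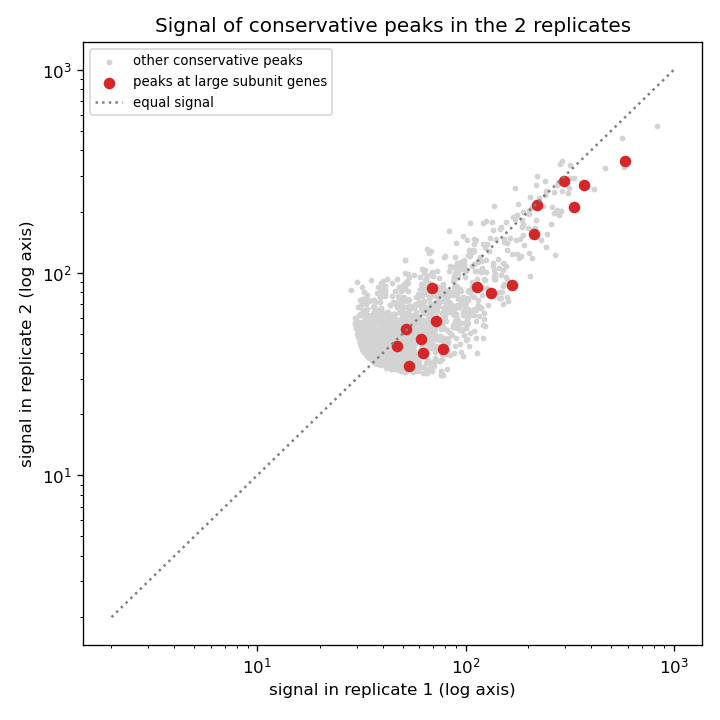
Signal in replicate 1 against signal in replicate 2 (both log axes) for the 1606 conservative peaks found in both replicates' lists; red points are the 17 peaks at large subunit genes and the dotted line marks equal signal. Red points lie below the line in 15 of 17 cases and reach into the strongest part of the cloud.

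All 17 summits lay upstream of the annotated 5′ end of the member, at a median of 286 bp, and 16 of them lay between genes. The exception was rpl-24.2, whose summit fell in an intron of C03D6.1. Between 200 and 500 bp upstream lay 13 of the 17, a band set after these distances were seen, and 35.97% of the 884 bound genes had their summit in it. The median over all bound genes was 264.5 bp upstream, and 89.4% of their summits were upstream. Outside the band were rpl-12 and rpl-7A, near the start, rpl-24.2 at 137 bp and rpl-43 at 718 bp. Peaks at the 6 strongest members were narrow, from 170 to 244 bp, whereas the other 11 were 300 bp wide, as were 91.8% of all conservative peaks.

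**Figure D3:**
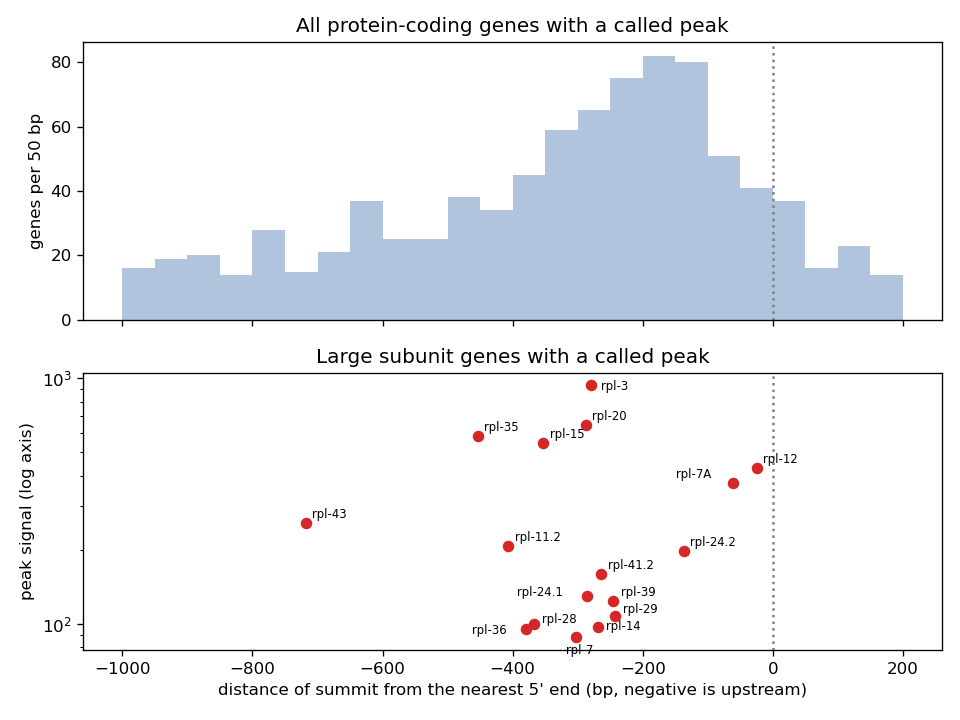
Upper panel, number of bound protein-coding genes per 50 bp of distance between summit and nearest 5′ end; lower panel, the same distance for the 17 bound large subunit genes against signal (log axis). No red point lies downstream of the 5′ end, and 13 of 17 lie 200 to 500 bp upstream.

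Several of these peaks sat between a pair of genes. In 11 of 17 cases (64.7%) the summit also fell in the promoter window of another protein-coding gene, against 43.8% of the 884 bound genes, and in 10 of those a gene on the opposite strand was among them. Small subunit genes were the partner in 3 cases: rps-10 beside rpl-24.1, rps-30 beside rpl-39 and rps-14 beside rpl-36. A mitochondrial ribosomal protein gene, mrpl-49, shared the peak of rpl-28. Other partners were lin-54, a DNA-binding subunit of the DREAM repressor complex, beside rpl-12, and rab-11.1, a small GTPase of membrane recycling, beside rpl-7. The remaining ones were set-21 beside rpl-7A, thoc-7 beside rpl-29, ndab-2 also beside rpl-36, C26F1.3 also beside rpl-39, K11H12.8 beside rpl-15, Y17G9B.5 beside rpl-20 and Y48B6A.1 beside rpl-43. A shared peak cannot be assigned to 1 gene of the pair from these lists. When each summit was given to the nearest 5′ end alone, 13 members stayed bound, and rpl-20, rpl-28, rpl-36 and rpl-43 were lost.

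No bound member had a tRNA, snoRNA, snRNA, rRNA or miRNA gene within 200 bp of its summit, against 10.2% of the 884 bound genes, and the closest was the snoRNA gene Y24D9A.9, 344 bp from the rpl-7A summit. Within 1000 bp such a gene was found for 4 of 17, rpl-7A, rpl-15, rpl-24.1 and rpl-7, a snoRNA gene each time, against 13.5% of the bound genes.

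Of the 33 members without a called peak, 32 had a ranked summit in the window, and only rpl-18 had none. The ranked list is long, and 14797 of all 19985 protein-coding genes had a ranked summit in the window. At 6 of the 32 the strongest peak had a score of 45, the lowest in the ranked list. The signals of the 32 had a median of 49.0 and a range of 3.89 to 78.2. Over the 13913 unbound genes with a ranked summit, these members included, the median signal was 32.5. The highest was rla-1, a stalk protein gene, with 78.2 in the series list, 23.7 in replicate 1 and 40.9 in replicate 2, and its summit lay within the snoRNA gene Y37E3.21. At rpl-5, whose protein carries 5S ribosomal RNA, the series value was 77.4, with 51.2 in replicate 1 and 27.9 in replicate 2. The next 4 were rpl-1 (71.8), rpl-26 (70.8), rpl-23 (70.5) and rpl-31 (70.4). At rpl-23 replicate 2 had 58.2, and replicate 1 listed no summit in the window. Of the 32 peaks 21 overlapped a ranked peak in both replicates' own lists. All 17 of the bound members did, as did 1606 of the 1627 conservative peaks. Those were kept for their agreement between the replicates, so the contrast follows from the threshold. The lowest were rpl-10 (9.70), rpl-42 (5.83) and rla-0 (3.89), the last encoding the scaffold of the stalk. Among the conservative peaks 20.1% had a signal below that of rla-1.

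Of the 32 summits below the threshold 13 lay in exons, such as those of rpl-9, rpl-11.1, rpl-13, rpl-17, rpl-25.1 and rpl-34 in the gene itself, and 16 were intergenic. Upstream of the nearest annotated 5′ end lay 26 of 32. They include rpl-19, which has 2 annotated 5′ ends and whose summit lay in its own intron. Whether this differs from the bound members was not tested.

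By place in the ribosome, only a few groups of genes were counted, and most bound members fell in none of them. The share bound was 34.0% over all 50 members and 4.42% over all protein-coding genes. This grouping was made after the values were seen and is a description. Of the 4 genes of the stalk and its base, only rpl-12 was bound, and the 3 rla genes were not. Of the 3 genes for proteins that accompany 5S ribosomal RNA, only rpl-11.2 was bound. Of the 9 genes of the tunnel and its exit, rpl-35 and rpl-39 were bound, whereas rpl-4, rpl-17, rpl-19, rpl-25.1, rpl-25.2, rpl-26 and rpl-31 were not. By chromosome the counts were 5 of 17 members on I, 1 of 9 on II, 3 of 9 on III, 5 of 8 on IV, 2 of 5 on V and 1 of 2 on X, and between 2.82% and 5.49% of all genes of a chromosome were bound.

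Of the 4 pairs of genes whose symbols differ only in the number after the point, 2 did not share a state. The symbols rpl-7 and rpl-7A, and rpl-36 and rpl-36.A, also share a number but name different proteins and are not counted as pairs; rpl-36.A was not bound (55.0). In the first pair rpl-11.2 had 207 and rpl-11.1 had 41.8 below the threshold. The rpl-11.1 summit lay in its own exon, 105 bp downstream of the nearer of its 2 annotated 5′ ends. The other end is at position 3586064 and the summit at 3585452, so the stretch shown for rpl-11.1 comes from within the gene. In the second rpl-41.2 had 159, and its neighbour rpl-41.1 had 42.6 at a summit 679 bp upstream. Both rpl-24.1 and rpl-24.2 were bound, and neither rpl-25.1 (51.2) nor rpl-25.2 (54.1) was. The pairs were set by symbol alone, which does not show that both genes of a pair encode the same protein. Around the summits of the bound members of these pairs every 24-base word was unique in the genome. The summits of rpl-11.2 and rpl-11.1 are shown to compare a called and an uncalled gene of a pair, together with rpl-5, the member nearest to the threshold from below.
rpl-11.2, called, chrX:2242975-2243075, minus strand: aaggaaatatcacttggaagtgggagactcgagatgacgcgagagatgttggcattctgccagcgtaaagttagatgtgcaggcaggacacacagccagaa
rpl-11.1, not called, chrV:3585402-3585502, minus strand: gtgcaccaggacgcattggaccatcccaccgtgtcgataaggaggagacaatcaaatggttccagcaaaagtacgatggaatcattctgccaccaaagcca
rpl-5, not called, chrII:8569434-8569534, plus strand: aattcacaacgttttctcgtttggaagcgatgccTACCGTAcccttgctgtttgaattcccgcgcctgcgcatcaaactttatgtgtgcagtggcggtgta

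The letters of a nuclear receptor half-site, AGGTCA, were rare around summits in general. Within 50 bp of the 17 summits they had 0 matches on either strand, and 2.89% of all conservative peaks held them in that window, so a count this low is near the background. Within 100 bp 1 bound member held them, against 5.65% of all peaks. The variants AGTGCA and TGAACT also had 0 matches (4.61% and 4.12% of all peaks), as did TATAAA (3.69%) and TTTCAG (9.04%). The E-box CACGTG was found once, at rpl-14 (4.18% of all peaks). More frequent were GAGAC, at 10 of 17 (29.3% of all peaks), CTGCG at 7 (26.9%), GGCGC at 7 (358 of the 1627 peaks), CCCGCC at 3 (7.19%) and TTTTTT at 3 (19.1%). Over the whole promoter window of 1200 bp nearly every gene held some of these, such as TTTTTT in 99.2% and GAGAC in 75.9% of all windows. AGGTCA was found in 26.7% of all windows, in 7 of 17 of bound members and in 5 of 33 of the other members. This difference was not tested. The median content of G and C within 50 bp of the summit was 49.5% at bound members, as over all conservative peaks, with a range of 43.6% to 63.4%.

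A set of 3 longer words was picked after the sequences were seen. All words of 5 to 8 letters within 50 bp of the 17 bound summits, 4046 in all, were ranked by their excess over all peaks, and the first 3 of the 1252 with 7 letters were taken. With so many words searched in 17 windows, some excess would be found whatever the sequences held, so their counts at those summits describe the choice and support nothing. GAGACCC, which contains GAGAC, stood within 50 bp of 6 summits (4.06% of all peaks), namely those of rpl-3, rpl-7, rpl-14, rpl-29, rpl-39 and rpl-41.2. ACACTCG stood at 6 (1.60%), those of rpl-3, rpl-15, rpl-20, rpl-24.1, rpl-24.2 and rpl-29, and TACCGTA at 5 (3.07%), those of rpl-3, rpl-7, rpl-20, rpl-24.1 and rpl-43. The peak of rpl-3 held all 3 words. In 6 bound summits, those of rpl-7A, rpl-11.2, rpl-12, rpl-28, rpl-35 and rpl-36, none was found.

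The promoters of members without a called peak did not enter this choice. Over the window of 1200 bp at the outermost 5′ end, GAGACCC was found at 14 of these 33, against 8.51% of all 19973 promoter windows, and at 6 of the 17 members with a called peak. Small subunit genes held it in 8 of 31 windows and mitochondrial ribosomal protein genes in 6 of 70. The windows of rps-10, rps-14, rps-30 and mrpl-49 include sequence from which the words were picked, and without them the counts were 7 of 28 and 6 of 69. Its 21 matches in members lay at a median of 264 bp upstream of the 5′ end. The 15 in members without a called peak ran from 401 bp upstream to 25 bp downstream. The 6 in bound members lay between 237 and 305 bp upstream, but these were picked for lying near the summits. ACACTCG was found at 6 of 33 members without a called peak, at 7 of these 28 small subunit genes and at 5.97% of all windows. TACCGTA was found at 6 of 33 and 6 of 28, against 14.7% of all windows. A match of letters is not a measured binding site.

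Examples picked after the matches were known, from both kinds of member, show where the first word stands, in capitals with the other words. It lay 5 bp from the summit of rpl-39 and 29 bp from that of rpl-29, which are called, and 37 bp from the highest summit of rpl-2, which is not. Within 50 bp of the summit the word stood at 6 of the 32 members below the threshold. Among these rpl-2 was the farthest, and rpl-6 and rpl-31 were the nearest, at 1 bp each. At called members the distance ran from 3 bp at rpl-7 to 42 bp at rpl-3, so the examples show no difference in distance.
rpl-39, called, chrV:7776275-7776375, minus strand: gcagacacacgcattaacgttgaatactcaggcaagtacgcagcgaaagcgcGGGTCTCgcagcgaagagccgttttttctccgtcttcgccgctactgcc
rpl-29, called, chrIV:13881932-13882032, plus strand: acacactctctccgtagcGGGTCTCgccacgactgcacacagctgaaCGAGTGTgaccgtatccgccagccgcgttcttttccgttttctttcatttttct
rpl-2, not called, chrV:20479243-20479343, plus strand: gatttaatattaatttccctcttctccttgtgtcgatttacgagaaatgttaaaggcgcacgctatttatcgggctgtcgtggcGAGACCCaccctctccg

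**Figure D4:**
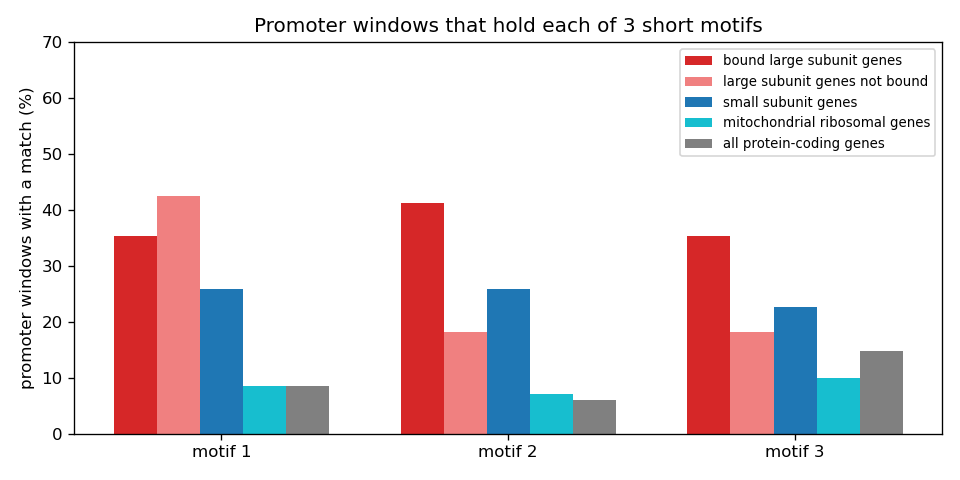
Share of promoter windows of 1200 bp that hold the letters GAGACCC (motif 1), ACACTCG (motif 2) and TACCGTA (motif 3) on either strand, by gene list. Motif 1 stands in 14 of 33 windows of uncalled and 6 of 17 of called large subunit genes, against 8.51% of all windows. The bars for called genes come from windows that hold the sequence searched for the words, so they describe the choice. The bar for small subunit genes counts all 31, including 3 that share searched sequence. The mitochondrial bar counts all 70, including mrpl-49, which also shares it.

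Among other genes of protein synthesis, those of the small subunit were bound most often. Of the 31 rps genes 16 were bound (51.6%), with a median signal of 146 and a highest signal of 369.7 at rps-1, which is below that of all 6 strongest large subunit members. No test of the difference between the subunits was made, and 3 peaks are counted in both lists. Genes of translation factors were bound in 7 of 37 cases, led by the elongation factor gene eef-2 (241) and the initiation factor gene eif-3.C (216). Of 26 genes of ribosome biogenesis and its control 6 were bound (ebp-2 was taken off this list after the first count, which was also 6, because that worm gene encodes a microtubule-binding protein), among them larp-1 (250.2), fib-1 (177), which encodes the nucleolar methyltransferase fibrillarin, and pro-1 (131). Mitochondrial ribosomal protein genes gave lower counts, 4 of 41 for the large subunit, with mrpl-41 the highest at 103, and 1 of 29 for the small subunit (mrps-7, 89.6). The background for all these counts is the 4.42% given above.

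**Figure D5:**
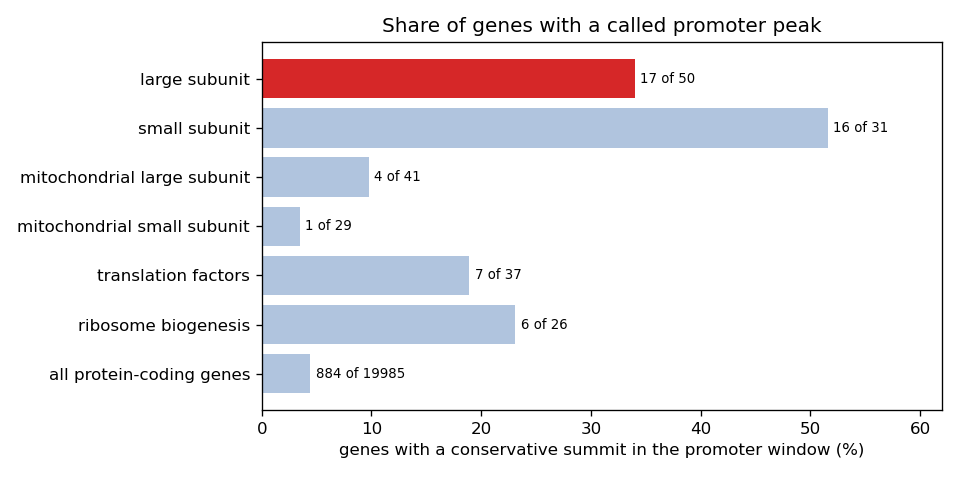
Percentage of genes with a conservative summit in the promoter window, by gene list; the count of bound genes of all genes in the list stands beside each bar. Large subunit genes (17 of 50) and small subunit genes (16 of 31) have the longest bars, against 884 of 19985 for all protein-coding genes.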

How the data were processed

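The authors deposited peak lists on ce11, per the file headers and labels, for each replicate and for both together. These sources name neither peak caller nor aligner. The deposited signal value has no stated unit. The deposited score is a scaled IDR capped at 1000, and the authors' ranked lists add the IDR on a −log10 scale. Chromatin was sheared to 200 to 800 bp, per the labels. Replicate values were read from the replicates' own ranked lists.

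Genes came from Ensembl release 115 and sequence from RefSeq WBcel235, whose chromosome lengths hold all ce11 peaks. Summits were assigned to windows reaching 1000 bp upstream and 200 bp downstream of each 5′ end. Copy number is the count of 24-base words within 75 bp of the summit. Motifs were sought on both strands, within 50 bp of summits and in the window of the outermost 5′ end. Members and lists were chosen with earlier results of these data known, and the 7-letter words, the distance band, the role groups, an edit to the biogenesis list and the sequences of rpl-39, rpl-29, rpl-2 and the rpl-11 pair were chosen after values were seen. Named genes are all bound members, the 6 highest and 3 lowest of the others, those without a ranked summit, suffix pairs and genes that share a peak. No test was made. The counting was tested on simulated data. Python 3.11.15, pandas 2.3.3, numpy 2.4.6, scipy 1.17.1 and matplotlib 3.10.9 were used.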

Additional observations from a re-analysis of the deposited data

How the results depend on the processing

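The count of 17 bound members ranged from 11 without replicate 1, which leaves replicate 2's own list, to 15 without replicate 2. It was 13 with the nearest 5′ end and between 15 and 18 under the other alternatives: the other series list, a score of 1000 only, 2 other windows, any overlap of the peak, the outermost 5′ end, the right end of II left out, and summits with repeated sequence left out (an alternative chosen after seeing the data). The 11 members also called in both replicates' own lists stayed 11 under 3 other overlap rules or lists. The median signal of the bound members, 197, was 178 in the other series list and also with the window of 500 bp upstream and 100 bp downstream, and 133 to 156 when 1 replicate was left out, whose own lists hold lower values. The median distance of 286 bp upstream (-286) was -301 to -291 in the replicates' own lists. Within 100 bp of the summit AGGTCA was found at 1 bound member (5.65% of all peaks), TTTCAG at 3 (20.4%) and TTTTTT at 14 (42.9%), by construction a wider search, and the other 8 listed motifs stayed within 1.5 times their count. No paired analysis was possible because the 2 replicates form a single group. Read depth is unknown, so the lists cannot show how weak a peak could have been called.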
